A study of Homo sapiens with 12 samples.

Results

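The 2 array groups compared here were those labelled ING2-6K DMSO and ING2-WT etoposide, 3 arrays each and so 6 of the 12 arrays of the series. They were chosen by measured values: both had low mitotic transcripts and high CDKN1A, the transcript of the cell cycle inhibitor p21, on the arrays themselves. All arrays measured RNA from HT1080, an established human fibrosarcoma line, and every culture carried ING2 introduced with a construct, not the native gene alone. By their labels, the ING2-6K DMSO cells expressed ING2-6K/Rmt, in which basic residues that bind the nuclear lipid PtdIns(5)P are altered, and received only the solvent DMSO. By theirs, the ING2-WT etoposide cells expressed wild-type ING2 and received 100 uM etoposide for 16 h per the labels, whereas the text of the study gives another time. The other 6 arrays, ING2-6K etoposide and ING2-WT DMSO, had high mitotic transcripts and are called the cycling groups below. Among the ING2-6K arrays, those labelled DMSO carried the arrest profile and those labelled etoposide did not. ING2 was bright only on arrays 1 and 2 labelled ING2-6K etoposide. The study reports that cell cycle genes lose their repression by etoposide when cells carry the form altered in lipid binding. Why the arrays labelled ING2-6K DMSO carried the arrest profile was not tested. As labelled, the arrested pair differ in both the ING2 form and the treatment, and the part of each cannot be told apart. If the treatments of the ING2-6K arrays were exchanged, both groups would be treated ones whose labels differ in the ING2 form. The ING2 probes marked the introduced gene in neither group. An exchange was not tested, and the labels do not settle it. Group names below mean only the arrays so labelled. No label ties an array to a culture of its own, so each p-value reflects no more than how these arrays vary, and that may be technical. In bulk RNA, fewer cells that express a gene and less of its RNA per cell cannot be told apart.

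Etoposide holds topoisomerase II on cut DNA and so leaves double-strand breaks, which activate p53. p53 induces CDKN1A, and p21 then keeps the repressor complex DREAM on the promoters of cell cycle genes, so that mitotic transcripts fall together. ING2 is a subunit of a SIN3-HDAC complex that is recruited to chromatin and removes acetyl groups from histones. Cells that have stopped dividing can still differ in other programs, such as matrix secretion, the oxygen response driven by HIF1, metal buffering by metallothioneins and the amino acid and oxidant responses driven by ATF4 and NRF2.

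The values that chose the groups are given as a description, with no test. Values are scanner intensities per probe, and those under 16 were set to 16. TOP2A, topoisomerase II alpha itself, had 74.0, 73.8 and 128 on ING2-6K DMSO arrays 1 to 3, and 80.8, 103 and 157 on ING2-WT etoposide arrays 1 to 3, against 1947 to 3317 on the cycling arrays. CDKN1A had 16700, 15022 and 9643 on the ING2-6K DMSO arrays and 19443, 18901 and 12657 on the ING2-WT etoposide arrays, against 2969 to 6574 on the cycling arrays. On these probes the 2 arrested groups therefore overlapped for both genes and stood clear of the cycling arrays. A second CDKN1A probe had 222, 155 and 110 in ING2-6K DMSO and 239, 218 and the floor of 16 in ING2-WT etoposide. It read 36.4 to 98.0 on the cycling arrays, so ING2-WT etoposide array 3 lay below them on that probe. Over the 67 measured genes of a mitosis and G2/M list, the median intensity of an array was 44.9 to 63.6 in ING2-6K DMSO and 78.2 to 111.9 in ING2-WT etoposide, against 602 to 1079 in the cycling groups. The ING2-6K DMSO arrays thus lay below the ING2-WT etoposide arrays on every array for this median. NCAPG, a condensin subunit, had 44.0, 41.6 and 55.9 in ING2-6K DMSO and 169, 184 and 133 in ING2-WT etoposide, and CDC20, an activator of the anaphase-promoting complex, had 219, 228 and 230 in ING2-6K DMSO and 648, 771 and 254 in ING2-WT etoposide. Neither gene's 2 groups overlapped. MDM2, a p53 target outside the choice, had 209, 202 and 247 in ING2-6K DMSO and 413, 350 and 148 in ING2-WT etoposide, and these overlapped.

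**Figure D1:**
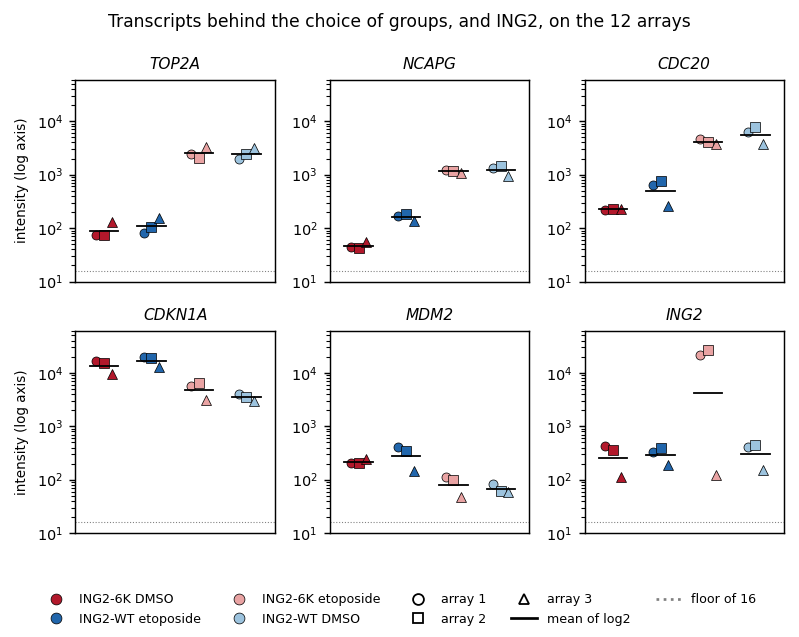
Intensity on each of the 12 arrays (log axis) for 5 transcripts behind or beside the choice of groups and for ING2, by group, with arrays 1, 2 and 3 as circle, square and triangle and the bar at the mean of log2 values. TOP2A, NCAPG and CDC20 are low and CDKN1A, on the probe shown, is high on all 6 arrays of the arrested pair. ING2 is far above all other arrays on only 2, ING2-6K etoposide 1 and 2, at 21473 and 27156.

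ING2 itself did not mark the introduced gene on the arrested arrays. The probe with the higher mean over the 12 arrays had 427, 362 and 113 on the ING2-6K DMSO arrays and 333, 390 and 192 on the ING2-WT etoposide arrays. ING2-6K etoposide arrays 1 and 2 read 21473 and 27156, array 3 of that group read 122, and the ING2-WT DMSO arrays read 149 to 451. A second ING2 probe, brighter than the first on all 6 arrested arrays, had 555, 503 and 141 in ING2-6K DMSO and 466, 453 and 237 in ING2-WT etoposide. A direction below is always that of arrays labelled ING2-6K DMSO relative to arrays labelled ING2-WT etoposide. The markers of the labelled cell type were measured on all arrays: 10 or 11 of 14 mesenchymal and fibrosarcoma markers reached an intensity of 64 on ING2-6K DMSO arrays 1 and 2 and 9 on array 3, and 8 to 10 on the ING2-WT etoposide arrays. Of 12 epithelial markers, 1 to 4 reached 64 in ING2-6K DMSO and 1 to 3 in ING2-WT etoposide. Of 13 blood-cell markers on the array, 2, 3 and 3 reached 64 on ING2-6K DMSO arrays 1 to 3, against 5, 4 and 7 on the ING2-WT etoposide arrays, with summed intensities of 4684 to 5558 in ING2-6K DMSO and 5219 to 9259 in ING2-WT etoposide. CD68, a lysosomal protein that is not limited to blood cells, made up most of each sum, with 4204 to 5115 in ING2-6K DMSO and 4683 to 8581 in ING2-WT etoposide. The part of other cells in the results below was not tested.

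The arrays numbered 3 stood apart from their own groups. Over 11421 genes, log2 values of ING2-6K DMSO arrays 1 and 2 correlated at r = 0.979, and array 3 of that group correlated with them at 0.890 and 0.882. ING2-WT etoposide arrays 1 and 2 correlated at 0.970, and array 3 with them at 0.780 and 0.779. Across the 2 groups, arrays 1 and 2 correlated at 0.919 to 0.934, so each array 3 was farther from its own group than the groups were from each other. ING2-WT etoposide array 3 also read under 128 for 40 genes that were at 1000 or more on all other arrays. One of these was RPLP0, a ribosomal stalk protein, at 84.7 against 23364 and 27719 on arrays 1 and 2 of its group. No other array had any such gene. For this reason counts are given on all 3 arrays a group and on arrays 1 and 2 alone, and the genes described in full with their value on every array. A group whose arrays 1 and 2 were both under 64, the filter's minimum, was taken as 64 for a fold, which is then a lower bound.

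On all 3 arrays a group, no gene passed an adjusted p of 0.05. The test was limma's moderated two-sided test with 4 group means over the 12 arrays and Benjamini-Hochberg adjustment over 11421 genes, and its call rate was 0%. At an unadjusted p under 0.05 there were 1129 genes (9.89%), 554 of them higher and 575 lower in ING2-6K DMSO. The smallest adjusted p was 0.0786. Without ING2-6K DMSO array 3 there were 80 calls, without ING2-WT DMSO array 3 there were 7, without ING2-WT etoposide array 2 there was 1, and without any other single array there were 0. With a weight for each array estimated from its own spread, 3082 genes were called, and in that fit the arrays numbered 3 in the arrested pair had weights of 0.186 and 0.0911 against 2.08 to 3.34 for the other 4. The median standard error of a log2 difference was 0.43, and for 2503 genes (21.9%) the 95% interval lay within 1 log2 unit of 0.

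On arrays 1 and 2 alone, 2578 genes were called, 1291 higher in ING2-6K DMSO (11.3%) and 1287 lower (11.3%). Without 1 of these 4 arrays the count was 632 to 1155, lowest without ING2-6K DMSO array 2. The median standard error was 0.20, and the 95% interval lay within 1 log2 unit of 0 for 6011 genes (52.6%). The median log2 difference over all genes was -0.01. The groups of 3 did not overlap for 754 genes higher in ING2-6K DMSO (6.6%) and 1002 lower (8.77%). Both conditions held for 308 genes higher and 452 lower. Genes named below were chosen partly for no overlap, for a small p or for values already seen. Their lack of overlap is therefore a description. Of the 5 blood-cell markers that passed the filter, CD14 and CORO1A were called lower in ING2-6K DMSO on arrays 1 and 2. Neither was called with the replicate number as a block (adjusted p = 0.061 and 0.0646). CD14 would not have passed the filter without the ING2-WT etoposide arrays, so its call is a description. Of 11 mesenchymal markers that passed, 5 were called higher and none lower on arrays 1 and 2, with a median log2 difference of 0.75, 0.48 on all 3 arrays and -0.28 on arrays 3.

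**Figure D2:**
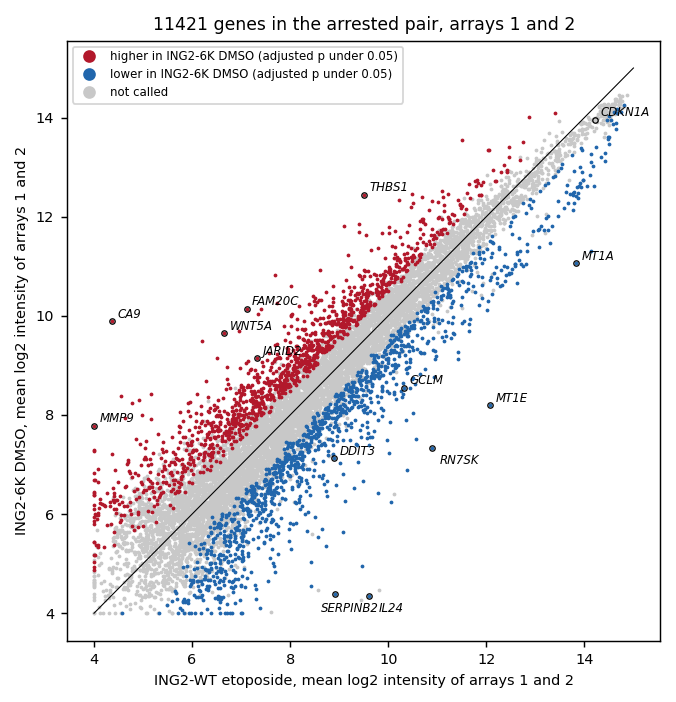
Mean log2 intensity of arrays 1 and 2 for each of 11421 genes in ING2-6K DMSO (vertical axis) and ING2-WT etoposide (horizontal axis), with the line of equal values. Red genes were called higher in ING2-6K DMSO (1291) and blue ones lower (1287), and CDKN1A lies near the line.

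The arrays numbered 3, which share no array with that fit, had its directions about as often as all genes did. Of the 1291 genes called higher on arrays 1 and 2, 548 (42.4%) were higher in ING2-6K DMSO on arrays 3, where 42.1% of all genes were. Of the 1287 called lower, 769 (59.8%) were lower on arrays 3, where 57.6% of all genes were. The median log2 difference of all genes on arrays 3 was -0.19, so list medians on arrays 3 are to be read beside that value. The log2 differences of the 2 sets of arrays correlated at r = 0.025 over 11421 genes, given as a description. Among the 196 called genes past 2 log2 units, 117 (59.7%) had the same sign on arrays 3. The calls on arrays 1 and 2 below are therefore calls on those arrays, and the value on array 3 is given beside them.

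**Figure D3:**
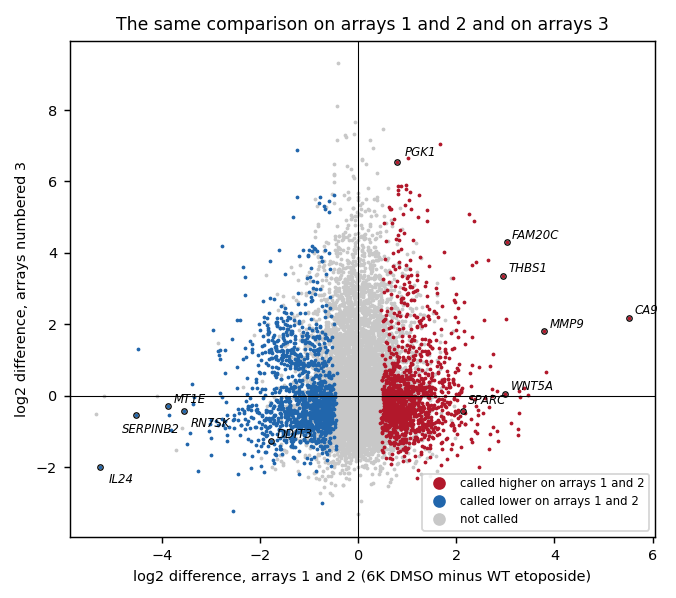
Log2 difference, ING2-6K DMSO minus ING2-WT etoposide, for each gene on arrays 1 and 2 (horizontal axis) and on the 2 arrays numbered 3 (vertical axis). Red and blue genes were called higher and lower on arrays 1 and 2. The points fill all 4 sectors of the plot (r = 0.025 over 11421 genes), with THBS1 and FAM20C at 3.36 and 4.30 and IL24 at -1.99 on arrays 3.

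Genes of the extracellular matrix were among those higher in ING2-6K DMSO. Of 37 measured genes on a list of YAP, TGF-beta and matrix genes, 17 were called higher on arrays 1 and 2 and 2 lower. These were 45.9% and 5.41% of the list, beside 11.3% each way for all genes. The median log2 difference of the list was 0.82. Over all 3 arrays none was called, as for every list, and the median was 0.63. On arrays 3 alone the median was 0.25. The gap was larger between the cycling groups, ING2-6K etoposide minus ING2-WT DMSO, on arrays 1 and 2. There the median of the list was 1.70 and 29 of the 37 were called in either direction, beside 30.4% of all genes. THBS1, the matrix glycoprotein thrombospondin 1 that can activate latent TGF-beta, had 6743, 4630 and 3811 in ING2-6K DMSO and 664, 788 and 372 in ING2-WT etoposide. Its groups did not overlap, with a log2 difference of 2.95 ± 0.22 (SE; adjusted p = 0.00227) on arrays 1 and 2 and 3.09 ± 0.47 (adjusted p = 0.0898) on all 3. FAM20C, the kinase of secreted proteins, had 1100, 1159 and 1607 in ING2-6K DMSO and 148, 130 and 81.5 in ING2-WT etoposide. It too was apart on every array, by 3.03 log2 units on arrays 1 and 2 (adjusted p = 0.0060) and 3.45 on all 3 (adjusted p = 0.196).

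Metalloproteases went both ways. MMP9, a gelatinase, had 223, 219 and 137 in ING2-6K DMSO and read at the floor of 16 on ING2-WT etoposide arrays 1 and 2 and 39.2 on array 3, which makes it at least 3.45-fold higher on arrays 1 and 2 (adjusted p = 0.00166). MMP14, named after its values were seen, the membrane-bound protease that activates MMP2, had 516, 554 and 892 in ING2-6K DMSO and 193, 155.8 and 195 in ING2-WT etoposide. MMP1, an interstitial collagenase, was the opposite, with 85.5, 25.5 and 151 in ING2-6K DMSO and 393, 367 and 261 in ING2-WT etoposide. These 3 genes did not overlap between the groups. On arrays 1 and 2 MMP14 was higher by 1.63 log2 units (adjusted p = 0.0065) and MMP1 fell by 3.02 (adjusted p = 0.013). On all 3 arrays the log2 differences were 1.81 (adjusted p = 0.356) and -2.28 (adjusted p = 0.224).

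For some genes the gap of arrays 1 and 2 was absent on arrays 3. SPARC, a collagen-binding glycoprotein, had 5296, 5099 and 4859 in ING2-6K DMSO and 1228, 1144 and 6562 in ING2-WT etoposide. WNT5A, a ligand of the non-canonical WNT pathway, had 785, 822 and 802 in ING2-6K DMSO and 104, 97.5 and 778 in ING2-WT etoposide. On arrays 3 the log2 differences were -0.43 and 0.04. In both genes the ING2-WT etoposide array 3 stood with the ING2-6K DMSO arrays, and the same held among the cycling groups, where ING2-WT DMSO array 3 had 7946 for SPARC and 1209 for WNT5A against 1428 to 1865 and 218 to 422 on arrays 1 and 2. ITGA10, an integrin alpha chain, was chosen after its values were seen as a plain case, with 1047, 1200 and 2298 in ING2-6K DMSO and 135, 211 and 2335 in ING2-WT etoposide. Whether the array 3 of a WT group carried RNA of its labelled line was not tested.

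MYLK, the kinase of myosin light chain, had 1267, 1103 and 1426 in ING2-6K DMSO and 456, 425 and 521 in ING2-WT etoposide, and ENG, a TGF-beta co-receptor, had 640, 634 and 1200 in ING2-6K DMSO and 258, 275 and 82.1 in ING2-WT etoposide. Both were apart on all 3 arrays and called on arrays 1 and 2, at log2 differences of 1.42 (adjusted p = 0.0124) and 1.26 (adjusted p = 0.00476). On all 3 arrays they were 1.43 (adjusted p = 0.280) and 2.13 (adjusted p = 0.304). The 250 bases before the RefSeq start of THBS1 in GRCh38.p14 are shown because it had the lowest adjusted p on 12 arrays of the matrix list. Capitals mark GGAATG, the letters bound by TEAD factors, the DNA-binding partners of YAP, searched on both strands. They occurred once here and in 12% of 27305 promoters of that length.
THBS1, chr15:39580829-39581078, plus strand: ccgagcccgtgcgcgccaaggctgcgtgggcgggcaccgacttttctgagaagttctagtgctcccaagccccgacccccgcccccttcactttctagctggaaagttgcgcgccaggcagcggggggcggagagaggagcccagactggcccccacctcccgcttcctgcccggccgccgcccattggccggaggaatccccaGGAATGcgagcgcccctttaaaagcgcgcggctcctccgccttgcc

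Genes of glycolysis and the response to low oxygen were higher as well on arrays 1 and 2. Of 29 measured, 14 were called higher and 1 lower, 48.3% and 3.45%, beside 11.3% each way for all genes. The median log2 difference of the list was 0.71. The median was 0.58 on all 3 arrays and -0.02 on arrays 3 alone. Between the cycling groups on arrays 1 and 2 it was 1.05, and 22 of the 29 were called in either direction, beside 30.4% of all genes. CA9, a carbonic anhydrase and HIF1 target, had 959, 940 and 360 in ING2-6K DMSO and 16, 27.0 and 79.1 in ING2-WT etoposide. The groups were apart, and CA9 was at least 14.8-fold higher in ING2-6K DMSO on arrays 1 and 2 (adjusted p = 0.00227, and 0.300 on all 3 arrays). VEGFA, the angiogenic growth factor, had 1032, 1352 and 1798 in ING2-6K DMSO and 327, 256 and 1089 in ING2-WT etoposide, and ALDOC, aldolase C, had 4093, 3156 and 591 in ING2-6K DMSO and 624, 479 and 519 in ING2-WT etoposide. Both overlapped once array 3 was counted. SLC2A1, the glucose transporter GLUT1, had 3549, 3190 and 3347 in ING2-6K DMSO and 1128, 1136 and 2966 in ING2-WT etoposide, apart on every array but by only 0.17 log2 units on arrays 3. ADM, the vasodilator peptide adrenomedullin and also a HIF1 target, was the exception, with 24, 16 and 97.0 in ING2-6K DMSO and 86.7, 108 and 154 in ING2-WT etoposide. VEGFA, ALDOC and SLC2A1 were named after their values were seen.

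Genes outside these lists were also apart on every array and higher in ING2-6K DMSO. Over all genes 754 were so (6.6%), and those given here are a selection. XRCC5, the Ku80 subunit that binds broken DNA ends, had 580, 819 and 338 in ING2-6K DMSO and 208, 219 and 93.3 in ING2-WT etoposide. It was higher by 1.69 ± 0.19 log2 units on arrays 1 and 2 (adjusted p = 0.00527) and by 1.75 ± 0.42 on all 3 (adjusted p = 0.224). ATM, the kinase that signals double-strand breaks, had 609, 548 and 1188 in ING2-6K DMSO and 233, 208 and 530 in ING2-WT etoposide, and PRKDC, the DNA-dependent protein kinase, had 1153, 1380 and 1888 in ING2-6K DMSO and 623, 579 and 1011 in ING2-WT etoposide. A second ATM probe overlapped, at 767 in ING2-6K DMSO and 743 in ING2-WT etoposide on arrays 3, while all 4 probes of PRKDC were apart. These 3 were the only members called higher on arrays 1 and 2 of 22 on a list of topoisomerases and break sensing, and 2 were called lower, 13.6% and 9.09% of the list beside 11.3% each way for all genes. TNFRSF11B, the RANKL decoy osteoprotegerin, had 323, 204 and 70.5 in ING2-6K DMSO and 27.5, 36.6 and 16 in ING2-WT etoposide. GALNT10, which starts mucin-type glycans, had 571, 570 and 347 in ING2-6K DMSO and 66.1, 126 and 24.9 in ING2-WT etoposide. PDCD6IP, the ESCRT-associated protein ALIX, had 472, 357 and 216 in ING2-6K DMSO and 86.7, 69.8 and 16 in ING2-WT etoposide. Each of these 3 was called on arrays 1 and 2. TNFRSF11B was at least 4.02-fold higher there, and GALNT10 and PDCD6IP had log2 differences of 2.65 and 2.40. TNFRSF11B would not have passed the filter without the ING2-6K DMSO arrays, where it was high, so its call is a description.

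Metallothioneins, small cysteine-rich proteins that bind zinc and copper, were the only list with every measured member called on arrays 1 and 2. All 5 measured of 11 listed were called lower in ING2-6K DMSO, with a median log2 difference of -2.84, against -0.01 for all genes and 11.3% of all genes called lower. MT1E had 306, 281 and 1018 in ING2-6K DMSO and 4022, 4611 and 1252 in ING2-WT etoposide. It fell by 3.88 ± 0.18 log2 units on arrays 1 and 2 (SE; adjusted p = 0.00166) and by 2.68 ± 0.66 on all 3 (adjusted p = 0.224). MT1A had 2299, 1986 and 4537 in ING2-6K DMSO and 13919, 15289 and 7118 in ING2-WT etoposide. MT1G had 66.0, 38.0 and 134 in ING2-6K DMSO and 525, 564 and 273 in ING2-WT etoposide. These 3 genes did not overlap between the groups, though the gaps on arrays 3 were smaller, at -0.30, -0.65 and -1.03 log2 units.

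MT2A, the most widely expressed member, had 2865, 2219 and 7639 in ING2-6K DMSO and 16942, 19189 and 3440 in ING2-WT etoposide, and MT1X had 650, 289 and 749 in ING2-6K DMSO and 1787, 2117 and 652 in ING2-WT etoposide. For both, array 3 went the other way, and on arrays 3 alone the median of the list was -0.30, beside -0.19 for all genes. The cycling groups were not low: MT1E had 1497 to 2463 in ING2-6K etoposide and 1548 to 5657 in ING2-WT DMSO, so ING2-6K DMSO was lowest of the 4 groups. Metallothionein genes are near-identical in sequence and their probes may share signal, so the 5 are not independent. The pseudogenes MT1IP and MT1P3 were called lower as well. MT1IP had 189, 176 and 457 in ING2-6K DMSO and 1381, 1668 and 916 in ING2-WT etoposide.

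Of the 5 measured metallothioneins, 2 had an entry in the RefSeq promoter table for GRCh38.p14. Their 250 bases before the start are shown because the listed family members were all called lower on arrays 1 and 2, although these 2 went the other way on arrays 3, with metal response elements in capitals, the letters TGCACNC or TGCGCNC on either strand that MTF1, the zinc-sensing factor, binds. MT2A held 7 matches and MT1X held 4. At least 1 match was found in 24.7% of all 27305 promoters of this length and 4 or more in 0.381%. A match is a run of letters and not a measured site.
MT2A, chr16:56608334-56608583, plus strand: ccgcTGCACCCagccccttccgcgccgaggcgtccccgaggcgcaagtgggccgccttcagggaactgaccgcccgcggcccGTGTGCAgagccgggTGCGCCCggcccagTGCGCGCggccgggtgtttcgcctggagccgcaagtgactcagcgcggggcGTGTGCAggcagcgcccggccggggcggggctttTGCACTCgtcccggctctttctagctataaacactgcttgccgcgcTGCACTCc
MT1X, chr16:56682220-56682469, plus strand: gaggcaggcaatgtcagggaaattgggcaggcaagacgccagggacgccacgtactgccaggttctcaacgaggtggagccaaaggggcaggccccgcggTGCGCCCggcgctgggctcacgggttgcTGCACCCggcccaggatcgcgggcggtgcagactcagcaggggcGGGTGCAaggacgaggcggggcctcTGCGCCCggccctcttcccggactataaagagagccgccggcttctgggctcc

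Many genes of the oxidant and amino acid stress responses were lower in ING2-6K DMSO on arrays 1 and 2. Of 22 NRF2 antioxidant genes, 12 were called lower and 2 higher, 54.5% and 9.09%, beside 11.3% each way for all genes. The median log2 difference of the list was -0.57. The median was -0.37 on all 3 arrays and -0.29 on arrays 3, where that of all genes was -0.19. GCLM, the modifier subunit of the first enzyme of glutathione synthesis, had 397, 355 and 563 in ING2-6K DMSO and 1297, 1277 and 761 in ING2-WT etoposide. TXNRD1, thioredoxin reductase, had 853, 814 and 1098 in ING2-6K DMSO and 1887, 2791 and 1505 in ING2-WT etoposide. SLC7A11, the cystine importer that both NRF2 and ATF4 control, had 23.5, 16 and 33.6 in ING2-6K DMSO and 77.2, 110 and 78.2 in ING2-WT etoposide. None of the 3 overlapped on these probes, and all were called on arrays 1 and 2. The log2 differences were -1.78 and -1.46 for GCLM and TXNRD1, and the fold was at least 1.44 for SLC7A11. SLC7A11 would not have passed the filter without the ING2-WT etoposide arrays, so its call is a description. Second probes of GCLM and TXNRD1 were lower on arrays 1 and 2 and higher on array 3, where they read 134 and 513 in ING2-6K DMSO and the floor of 16 in ING2-WT etoposide. HMOX1, heme oxygenase, named after its values were seen, had 176, 129 and 396 in ING2-6K DMSO and 953, 1121 and 407 in ING2-WT etoposide, so that the 2 arrays numbered 3 were level.

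The 250 bases before the start of GCLM are shown with the antioxidant response element TGACNNNGC, bound by NRF2 with small MAF proteins, in capitals. It occurred once, and in 11.1% of all promoters of this length on either strand.
GCLM, chr1:93909431-93909680, minus strand: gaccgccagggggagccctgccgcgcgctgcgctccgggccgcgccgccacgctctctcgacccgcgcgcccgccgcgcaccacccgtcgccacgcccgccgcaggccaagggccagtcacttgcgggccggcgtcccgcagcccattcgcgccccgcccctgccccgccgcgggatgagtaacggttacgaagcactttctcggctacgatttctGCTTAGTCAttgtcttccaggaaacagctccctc

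Of 32 ATF4 and unfolded protein response genes, 12 were called lower and 4 higher on arrays 1 and 2, 37.5% and 12.5%, with a median log2 difference of -0.50. The median was -0.25 on all 3 arrays and 0.12 on arrays 3. DDIT3, the stress transcription factor CHOP, had 172, 113 and 259 in ING2-6K DMSO and 438, 524 and 629 in ING2-WT etoposide, against 82.7 to 141 on the cycling arrays. It was apart on all arrays, by -1.78 ± 0.26 log2 units on arrays 1 and 2 (adjusted p = 0.00868) and -1.61 ± 0.35 on all 3 (adjusted p = 0.199). ATF4 itself had 6389, 5187 and 7783 in ING2-6K DMSO and 12006, 13124 and 9703 in ING2-WT etoposide, and ASNS, asparagine synthetase, had 596, 529 and 829 in ING2-6K DMSO and 2820, 2693 and 916 in ING2-WT etoposide. Both were named after their values were seen, and neither overlapped. Among the 4 called higher was EDEM1, which removes misfolded glycoproteins, with 704, 870 and 806 in ING2-6K DMSO and 267, 434 and 174 in ING2-WT etoposide. Among 16 heat shock chaperones, 5 (31.2%) were called lower and none higher on arrays 1 and 2, beside 11.3% each way for all genes, with a median of -0.26, -0.23 on all 3 arrays and -0.42 on arrays 3. The chaperone with the smallest p was HSPA1A, inducible HSP70, with 1704, 1447 and 3159 in ING2-6K DMSO and 4284, 3501 and 5733 in ING2-WT etoposide. HSPA1A did not overlap. It is near-identical to HSPA1B, so the probes of the pair may share signal, yet on arrays 3 their log2 differences were -0.86 and 2.31.

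Among the named genes with the lowest values in ING2-6K DMSO relative to ING2-WT etoposide were IL24, SERPINB2 and ESM1. IL24, a cytokine of the IL10 family, had 25.8, 16 and 81.6 in ING2-6K DMSO and 629, 977 and 325 in ING2-WT etoposide. SERPINB2, the plasminogen activator inhibitor PAI-2, had 27.5, 16 and 59.7 in ING2-6K DMSO and 432, 546 and 87.4 in ING2-WT etoposide. ESM1, a proteoglycan of endothelial cells, had 93.3, 61.0 and 654 in ING2-6K DMSO and 1063, 1058 and 1272 in ING2-WT etoposide. These 3 were apart on these probes and called on arrays 1 and 2 (adjusted p = 0.00444, 0.00259 and 0.00811). There IL24 was at least 12.3-fold and SERPINB2 at least 7.59-fold lower in ING2-6K DMSO, and ESM1 had a log2 difference of -3.81. On all 3 arrays their adjusted p was 0.204, 0.248 and 0.269. SERPINB2 would not have passed the filter without the ING2-WT etoposide arrays, where it was high, so its call is a description. A second ESM1 probe went the other way on array 3, with 68.9, 61.5 and 430 in ING2-6K DMSO and 476, 709 and 222 in ING2-WT etoposide. DEFB103B, a beta-defensin with a near-identical gene copy, had the smallest adjusted p of all genes on 12 arrays, 0.0786. Its values were 16, 18.7 and 28.6 in ING2-6K DMSO and 161, 174 and 125 in ING2-WT etoposide. On the cycling arrays they were 16 to 38.7, so that DEFB103B was high only on the ING2-WT etoposide arrays. Only those arrays reached the filter's minimum, so the gene entered the test through that group alone. Its rank and this pattern are therefore a description. CXCL8, the neutrophil chemokine, had 675, 351 and 450 in ING2-6K DMSO and 1706, 1736 and 696 in ING2-WT etoposide, and SOD2, the mitochondrial superoxide dismutase and an NF-kB target, had 1077, 857 and 1294 in ING2-6K DMSO and 2011, 2405 and 3176 in ING2-WT etoposide. Of 21 NF-kB and inflammatory genes, 6 were called lower and 1 higher on arrays 1 and 2 (28.6% and 4.76%, beside 11.3% each way for all genes). The median of the list was 0.06, 0.11 on all 3 arrays and 0.10 on arrays 3, and 11 of the 21 were above 0. Second probes of CXCL8 and SOD2 overlapped between the groups.

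RN7SK, a noncoding RNA that holds the elongation factor P-TEFb inactive, had 134, 196 and 391 in ING2-6K DMSO and 1894, 1935 and 528 in ING2-WT etoposide, against 118 to 512 on the cycling arrays. Its log2 difference was -3.56 ± 0.20 on arrays 1 and 2 (SE; adjusted p = 0.00166) and -2.52 ± 0.58 on all 3 (adjusted p = 0.209). LINC00324, a long noncoding RNA, had 21.9, 25.4 and 95.6 in ING2-6K DMSO and 342, 345 and 140 in ING2-WT etoposide, and 16 to 34 on the cycling arrays. VWF, an endothelial marker, and RETREG1, a receptor for selective autophagy of the endoplasmic reticulum, were at the floor on ING2-6K DMSO arrays 1 and 2. VWF had 90.4 on ING2-6K DMSO array 3, against 122, 97.4 and 159 in ING2-WT etoposide. RETREG1 had 96.1 on ING2-6K DMSO array 3, against 110, 151 and 154 in ING2-WT etoposide. On arrays 1 and 2 they were at least 1.7-fold and 2.01-fold lower in ING2-6K DMSO. LINC00324, VWF and RETREG1 would not have passed the filter without the ING2-WT etoposide arrays, so their differences are a description. Of 10 endothelial markers 4 were measured, VWF was the 1 called lower and 1 was called higher, and the summed intensity of the list was 325 to 485 in ING2-6K DMSO and 396 to 736 in ING2-WT etoposide.

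**Figure D4:**
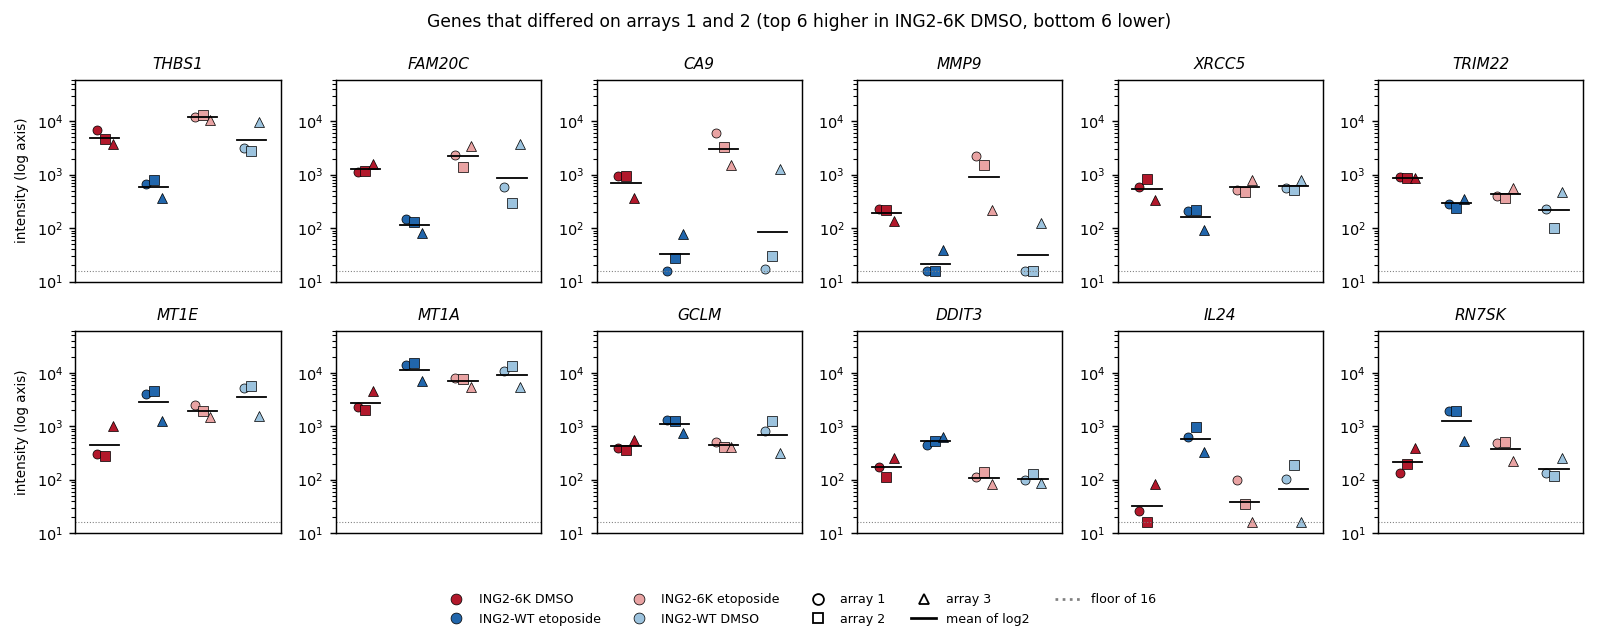
Intensity on each of the 12 arrays (log axis) of 12 genes of the arrested pair, by group, with arrays 1, 2 and 3 as circle, square and triangle and the bar at the mean of log2 values. In each panel the ING2-6K DMSO and ING2-WT etoposide arrays do not overlap, above in the upper row and below in the lower one, and the cycling groups stand at the right.

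The share of p53 targets called was near that of all genes. Of 39 measured, CDKN1A included, 5 were called higher and 5 lower on arrays 1 and 2 (12.8% each way, beside 11.3% for all genes), and the median log2 difference was -0.15, -0.21 on all 3 arrays and -0.20 on arrays 3. All genes had a median of -0.19 on arrays 3. The median intensity of the list on an array was 683 to 911 in ING2-6K DMSO and 848 to 893 in ING2-WT etoposide, against 406 to 499 on the cycling arrays. TRIM22, an antiviral protein that p53 induces, had 905, 870 and 876 in ING2-6K DMSO and 282, 239 and 356 in ING2-WT etoposide. GADD45A, a stress sensor, was the reverse, with 2487, 2373 and 3017 in ING2-6K DMSO and 5450, 5194 and 3481 in ING2-WT etoposide. Both were apart on these probes, with log2 differences of 1.77 (adjusted p = 0.0199) and -1.13 (adjusted p = 0.00579) on arrays 1 and 2. A second GADD45A probe overlapped, with 1286, 1078 and 1146 in ING2-6K DMSO and 2412, 2632 and 1094 in ING2-WT etoposide. MDM2 fell by 0.89 on arrays 1 and 2 (adjusted p = 0.0248). BCL2L11, the pro-apoptotic protein BIM, had 34.8, 47.8 and 29.1 in ING2-6K DMSO and 150, 117 and 90.9 in ING2-WT etoposide. It was the only one of 11 BCL2-family genes called, at least 2.07-fold lower on arrays 1 and 2 (adjusted p = 0.0104). BCL2L11 would not have passed the filter without the ING2-WT etoposide arrays, so its call is a description.

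Part of the DNA replication and repair genes were lower in ING2-6K DMSO. The median intensity of the replication list on an array was 114 to 135 in ING2-6K DMSO and 135 to 203 in ING2-WT etoposide, against 427 to 729 on the cycling arrays. These lists were not used to choose the groups, although such genes fall in arrest together with mitotic ones. Of 56 replication and G1/S genes, 12 were called lower and 3 higher (21.4% and 5.36%), beside 11.3% each way for all genes. The median of the list was -0.32, -0.24 on all 3 arrays and -0.33 on arrays 3. POLE, the leading-strand polymerase, had 44.0, 30.7 and 70.4 in ING2-6K DMSO and 149, 93.0 and 199 in ING2-WT etoposide, against 189 to 369 on the cycling arrays. Of 28 Fanconi and homologous recombination genes, 10 were called lower and 1 higher (35.7% and 3.57%), with a median of -0.56. That was about 2 times the median on all 3 arrays (-0.28). On arrays 3 the median was -0.20, beside -0.19 for all genes. FANCI, a Fanconi partner of FANCD2, had 47.0, 39.7 and 56.7 in ING2-6K DMSO and 101, 99.5 and 81 in ING2-WT etoposide, and POLQ, the end-joining polymerase, had 63.2, 38.4 and 89.0 in ING2-6K DMSO and 144, 118 and 141 in ING2-WT etoposide. None of these 3 overlapped, but each was named for a small p within its list, so this is a description. The groups did not overlap and were lower for 14 of the 56 replication genes and 6 of the 28 Fanconi and recombination genes. Among all genes this held for 8.77%. The values of FANCI and POLQ lay far below the cycling arrays (429 to 627 and 624 to 773).

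Of the remaining lists, some had shares above the 11.3% each way of all genes on arrays 1 and 2. Of 21 contractile and cytoskeletal genes, MYLK among them, 6 (28.6%) were called higher and 2 lower. Of 31 proteasome subunits, 8 (25.8%) were called lower and 1 higher. Of 30 splicing factors, 5 (16.7%) were called higher and 2 lower. Of 76 cytosolic ribosomal protein genes, 6 were called higher and 5 lower, and for 67 the 95% interval lay within 1 log2 unit of 0. Of 64 oxidative phosphorylation genes, 1 was called higher and 4 lower, and 60 had such an interval. Of 41 interferon-stimulated genes, 6 (14.6%) were called higher, GBP1 and PSMB9 among them, and 3 lower. GBP1, a guanylate-binding protein, had 565, 624 and 383 in ING2-6K DMSO and 267, 239 and 343 in ING2-WT etoposide, and a second probe overlapped. Of 19 ING-family and SIN3-HDAC genes, 2 were called in each direction.

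**Figure D5:**
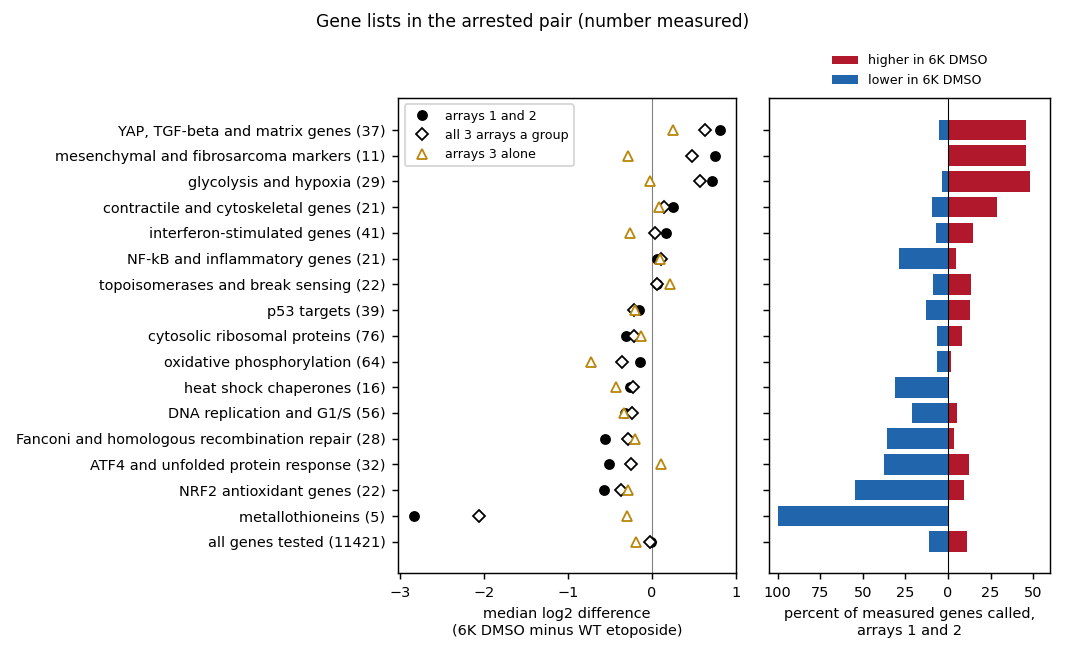
Left, median log2 difference (ING2-6K DMSO minus ING2-WT etoposide) of 16 gene lists and of all genes tested, on arrays 1 and 2, on all 3 arrays a group and on arrays 3 alone, with the number of measured genes in brackets. Right, percent of each list called higher (red) or lower (blue) on arrays 1 and 2, with 11.3% each way for all genes. Metallothioneins stand at -2.84 on arrays 1 and 2 and -0.30 on arrays 3, and all genes at -0.01 and -0.19.

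The study mapped promoters bound by ING2 after etoposide, and 190 of 282 such genes were measured. Of these, 23 were called higher and 15 lower on arrays 1 and 2 (12.1% and 7.89%), with a median log2 difference of 0.06, beside 11.3% each way and -0.01 for all genes. The median of the list was -0.02 on all 3 arrays and -0.30 on arrays 3, where that of all genes was -0.19. JARID2, a subunit of a Polycomb complex and one of these genes, had 603, 532 and 434 in ING2-6K DMSO and 164, 157 and 271 in ING2-WT etoposide, and was higher by 1.82 ± 0.18 log2 units on arrays 1 and 2 (SE; adjusted p = 0.00391). The genes that the study followed one by one were mostly not called between the 2 groups on arrays 1 and 2. SKP2, an F-box protein that degrades p27, had 308, 435 and 251 in ING2-6K DMSO and 320, 352 and 474 in ING2-WT etoposide, with a log2 difference of 0.12 and a 95% half-width of 0.49. AURKB, a mitotic kinase, had 47.0, 16 and 49.5 in ING2-6K DMSO and 29.1, 47.3 and 16.5 in ING2-WT etoposide, with a log2 difference of -0.43 and a 95% half-width of 1.19. AURKB is also on the mitosis list, so its values are a description. For CIP2A, an inhibitor of PP2A, DKC1, the pseudouridine synthase dyskerin, and UBE2N, a ubiquitin-conjugating enzyme, the log2 differences were -0.17, 0.14 and 0.50, none of them called. On arrays 3 the log2 differences were -0.92 for SKP2, 1.58 for AURKB, 0.02 for CIP2A, -0.67 for DKC1 and -0.40 for UBE2N. PGK1, a glycolytic kinase, was the only one called, at 0.79 (adjusted p = 0.0216), and one of its 2 probes read 24.8 on ING2-WT etoposide array 3 where the other read 1531.

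The gap was set against that between the cycling groups, ING2-6K etoposide minus ING2-WT DMSO, on arrays 1 and 2, which uses other arrays. Between the cycling groups 3473 genes were called (30.4%). Of the 2578 genes called in the arrested pair, 665 (25.8%) were called in the same direction there and 420 in the opposite one, and the 665 were 19.1% of the cycling calls. Genes higher in ING2-6K DMSO were shared in 446 of 1291 cases (34.5%) and those lower in 219 of 1287 (17%). The difference of the 2 gaps was itself called for 2839 genes (24.9%).

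On the cycling arrays numbered 3, 1949 of the 3473 cycling calls (56.1%) had the same sign. The 2 cycling arrays numbered 3 correlated with each other at r = 0.9771. With arrays 1 and 2 of its own group, array 3 correlated at 0.9441 and 0.9335 in ING2-6K etoposide. In ING2-WT DMSO it correlated at 0.8903 and 0.8741. THBS1, FAM20C and JARID2 were called higher on the ING2-6K arrays in both pairs on arrays 1 and 2, with cycling gaps of 2.09, 2.12 and 1.91 log2 units, and the 2 gaps did not differ past the threshold (adjusted p = 0.0854, 0.238 and 0.825). On arrays 3 their cycling gaps were 0.14, -0.13 and 0.28, since ING2-WT DMSO array 3 read as high as the ING2-6K arrays: THBS1 had 10604 on ING2-6K etoposide array 3 and 9634 on ING2-WT DMSO array 3. CA9 read 16.9 and 29.6 on ING2-WT DMSO arrays 1 and 2 and 1251 on array 3, beside 5892, 3303 and 1490 in ING2-6K etoposide. Other genes differed in the arrested pair and not by the same amount in the cycling one. XRCC5 had a cycling gap of -0.11 and a difference of gaps of 1.80 log2 units (adjusted p = 0.0112), and 1.88 on arrays 3. On the lower side the difference of gaps was -1.95 for DDIT3 (adjusted p = 0.0155), -1.45 for HSPA1A (adjusted p = 0.0144), -5.53 for RN7SK (adjusted p = 0.00262) and -2.56 for MT1E (adjusted p = 0.00699). On arrays 3 it was -1.22, -0.71, -0.26 and -0.25 for these 4 genes. The cycling gaps of XRCC5 and these 4 genes on arrays 3 were only -0.17 to -0.02. The difference of gaps there therefore mostly repeats the arrested gap, which was 1.86 for XRCC5. DDIT3, HSPA1A and RN7SK were high on ING2-WT etoposide arrays 1 and 2 beside all 3 other groups, while MT1E was low on ING2-6K DMSO arrays 1 and 2 beside all 3 others.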

How the data were processed

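The authors processed 12 one-colour Illumina BeadArrays in GeneSpring, per the study's methods. The deposited values are intensity per probe on a linear scale. They fall below 0 on every array, as after background subtraction, and the scaling between arrays is not given in the sources used here. A further 24 deposited columns matched no label and were not used. Each array held 48797 probes, and their symbols came from the deposited table (unit other), checked against a RefSeq gene table (24094 current, 4443 updated, 7564 kept as given, 12645 with none).

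Values were floored at 16 and taken to log2. Probes at 64 or more on at least 3 of 12 arrays were kept (14775), 1 per gene by highest mean (11421 genes). limma 3.58.1 in R 4.3.3 fitted 4 group means to the 12 arrays, and again to the 8 arrays numbered 1 and 2. The fits were tested on simulated data. Deviations from group means of same-numbered arrays of the 2 groups correlated at 0.199, 0.245 and 0.287, so a fit with the replicate number as a block was run beside each. The number of arrays limits the precision.

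Genes named were the 15 most different in each direction among those called on arrays 1 and 2 whose groups of 3 did not overlap, the 3 of each list with the smallest p on 12 arrays, genes the study names, and 5 that describe the choice of groups. The like rule for calls on 12 arrays named none. Of 128 such genes, 33 had over 1 probe, and in 3 of these the probes differed in sign on arrays 1 and 2. The groups, lists and rules were chosen with earlier results of these data known. Folds of genes dim in 1 group are lower bounds against 64, chosen after seeing the values. No set test was run. One gene list is not reported here.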

Additional observations from a re-analysis of the deposited data

How the results depend on the processing

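On all 3 arrays a group, the count of 0 called genes held under 11 of 15 other settings. Among them were quantile normalisation, 75th percentile scaling, cyclic loess and the replicate block (0 calls, 1932 at an unadjusted p under 0.05). The 11 include an adjusted p under 0.01, which had to give 0 once 0.05 did. The count was 3 with a floor of 64, 8 with no filter on dim probes, 5 at an adjusted p under 0.10 and 3082 with array weights. Leaving out 1 array at a time gave 0 to 80, with 80 without ING2-6K DMSO array 3.

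On arrays 1 and 2, the 2578 calls were 1929 to 2995 under the other scalings, floors, stricter filters and array weights and with every probe tested, and 2267 with the replicate block, 2140 of them shared and in the same direction. Of the 128 genes under the naming rule, 9 lost their call with the block, CD14 and CORO1A among them. There were 1264 calls with no filter, 1648 with only the arrays of the 2 groups, 1302 without moderation, 505 at an adjusted p under 0.01 and 3877 at one under 0.10. Leaving out 1 array at a time, with the lone array taken to vary like the other groups, gave 632 to 2600, with 632 and 854 without ING2-6K DMSO arrays 2 and 1 and 918 and 1155 without ING2-WT etoposide arrays 1 and 2.

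Of 62 list medians recomputed, 3 moved by more than the spread between arrays, each on arrays 1 and 2 alone: cholesterol synthesis at 0.27, Fanconi and homologous recombination repair at -0.56 and phosphoinositide kinases and phosphatases at -0.14. Among named genes, the direction turned for 11 genes, and none of the 11 was called on arrays 1 and 2. On arrays 1 and 2 alone EBP was at -0.14, ING2 at 0.13, AURKB at -0.43, SKP2 at 0.12, DKC1 at 0.14 and GAPDH at -0.26. With 1 array left out at a time, the log2 difference was over a range that crossed 0: H2AC6 -0.20 to 2.59, ESAM -1.08 to 0.33, ING2 -0.53 to 0.43, AURKB -0.15 to 0.77, CIP2A -0.28 to 0.010, DKC1 -0.22 to 0.026, UBE2N -0.076 to 0.74, GAPDH -0.53 to 0.65 and CCNB1 -0.49 to 0.88. The cause of these turns was not tested.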
